A study of Homo sapiens with 6 samples.

Results

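The mRNAs of mitochondrial ribosomal proteins (MRPs) were taken as the transcripts of the mRNA-seq table with an mRNA accession and a gene name of MRPL or MRPS followed by a digit. They were 109 transcripts of 76 genes among 38438 transcripts in the table, with 74 transcripts of 47 MRPL genes and 35 transcripts of 29 MRPS genes. All 109 passed the filter on low values, a mean of at least 1 RPKM.

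MRPs are encoded in the nucleus and imported into mitochondria, where they join rRNAs made from mitochondrial DNA to form the mitoribosome. The mitoribosome makes the core subunits of the oxidative phosphorylation complexes that mitochondrial DNA encodes. It has a large subunit (MRPL genes), which holds the peptidyl transferase center and the exit tunnel, and a small subunit (MRPS genes), which decodes the mRNA. Some MRPs descend from bacterial ribosomal proteins and others are particular to mitochondria. Their mRNAs are translated by cytoplasmic ribosomes, whose own ribosomal protein (RP) mRNAs start with a 5' terminal oligopyrimidine tract (5'TOP) and are translated under the control of the mTOR kinase and the RNA-binding protein LARP1. MRP mRNAs are a contrast to these RP mRNAs, because their products belong to another ribosome.

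The cells were HEK293T, a human embryonic kidney line with the SV40 large T antigen, for which the labels name no genetic change beyond the line itself. They were studied in the growing state and in an mTOR-inactive state, after PP242, which inhibits the mTOR kinase, at 2.5 µM, for a time that the sample descriptions do not state. There were 2 mRNA-seq libraries per condition, and 1 PAR-CLIP library per condition, for which 100 µM 4-thiouridine was given over 14 hr and LARP1 was crosslinked to RNA by ultraviolet light of 150 mJ/cm2.

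The mRNA level was given as RPKM, reads scaled by transcript length and mapped reads, and the numbers of reads are unknown. Judged from the spacing of low RPKM values, the other libraries were 1.04 to 1.06 times as deep as growing replicate 1. Of the markers fixed for this line, VIM was at 210 to 239 RPKM, KRT18 at 18.6 to 20.1 and NEFM at 15.7 to 18.2, whereas KRT8 was at 2.87 to 3.19 and PAX2 was at 0.116 to 0.136 RPKM. The blood, liver and muscle markers PTPRC, ALB, DES and MYH2 stayed at or under 0.164 RPKM. The methods speak of replicate and, in general, of independent experiments, but the labels do not say whether the libraries of a condition came from separate cultures, so p-values measure the spread between these libraries, which may be technical.

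The start sites of these genes are shown first, because 5'TOP mRNAs are defined by their first bases. RefSeq promoters of GRCh38.p14, with 250 bases before and 50 after the first listed start of a gene, matched 68 of the 76 genes, and those of MRPL2, MRPL10, MRPL13, MRPL15, MRPL21, MRPL23, MRPL35 and MRPS28 were not matched. An annotated start with C and at least 4 further pyrimidines, the form of a 5'TOP, was found in 5 of 68 MRP genes (7.35%), namely MRPL44, MRPL45, MRPL53, MRPS27 and MRPS33. The share was 68.3% of 63 RP genes with a promoter, 4.04% of all 27305 promoters and 5.62% of the 8137 genes of the table with at least 1 RPKM that matched a promoter. The first 15 bases held a median of 46.7% pyrimidines in MRP genes, 73.3% in RP genes and 46.7% in all promoters. The annotated start can differ from the start used in these cells.

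The windows were also searched on both strands for 3 motifs. CCGGAAG, a core bound by ETS factors such as GABPA, was found in 28 of the 68 MRP genes (41.2%), against 10.7% of all promoters, 20.9% of these genes of the table and 33.3% of RP genes. A motif of the YY1 type, shown in capitals in the MRPL36 window on its other strand, was found in 10 MRP genes (14.7%), against 0.916% of all promoters, 2.32% of the genes of the table and 0 of the 63 RP genes. The palindrome of the NRF1 type, in capitals in the MRPL17 window, was found in 1 MRP gene, MRPL17 (1.47%), against 1.36% of all promoters and 2.56% of the genes of the table. The motifs could overlap, but no MRP promoter held overlapping matches of different motifs. These are matches of letters and no measured binding sites. Windows of some of the genes that recur below are shown with the match in capitals. They are those of MRPL17, the member with the lowest adjusted p-value, of MRPL36, and of MRPL33 and MRPS10, which had LARP1 sites. MRPL30, MRPL54, MRPS16 and MRPS31, which also had LARP1 sites, held an ETS match too and are not shown. The MRPL17 window is at chr11:6683402-6683431 on the minus strand, that of MRPL36 at chr5:1799855-1799884 on the minus strand, that of MRPL33 at chr2:27771689-27771718 on the plus strand and that of MRPS10 at chr6:42217865-42217894 on the minus strand.
MRPL17, NRF1 type: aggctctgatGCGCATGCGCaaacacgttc
MRPL36, YY1 type: cccccccccGCCGCCATCTTccttcctggc
MRPL33, ETS type: tcttccagaaccgggccgtgccCCGGAAGc
MRPS10, ETS type: ccgctgtaaccCCGGAAGcaatcctgagag

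MRP mRNA levels after PP242 lay slightly below those under growing conditions. The log2 change of RPKM + 1 was below 0 for 91 of the 109 transcripts (83.5%), against 50.6% of all 21014 transcripts tested. Its median was −0.068, with a range of −0.30 to 0.12, and the median of all transcripts tested was −0.0013. At the threshold of 0.05 for p-values from limma, adjusted after Benjamini and Hochberg over all transcripts tested, 13 MRP transcripts of 6 genes fell and 0 rose, against 6.45% of all transcripts tested that fell and 3.48% that rose. In the MRP list this is 11.9% and 0%. However, 7 of the 13 are isoforms of MRPL55, and counted by gene the share was no larger than that of all genes, with 6 of 76 MRP genes (7.89%) and 8.91% of all 11319 genes tested having a transcript that fell. A transcript rose in 0 MRP genes and in 4.04% of all genes tested. At an unadjusted p under 0.05, 40 MRP transcripts were lower (36.7%) and 2 higher (1.83%), against 16.1% and 11.9% of all transcripts tested. The 2 libraries of each condition did not overlap in 64 MRP transcripts that were lower and 12 that were higher, against 30.0% and 28.5% of all transcripts tested. These counts treat isoforms, which share reads, as separate. With the transcript of highest RPKM per gene, 62 of the 76 genes (81.6%) were below 0 with a median of −0.049, against 52.3% of all genes tested. By this transcript 6 MRP genes fell (7.89%), against 8.47% of all genes tested. The calls depended on the settings, and 0 MRP transcripts fell without a filter on RPKM, as described under the processing.

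**Figure D1:**
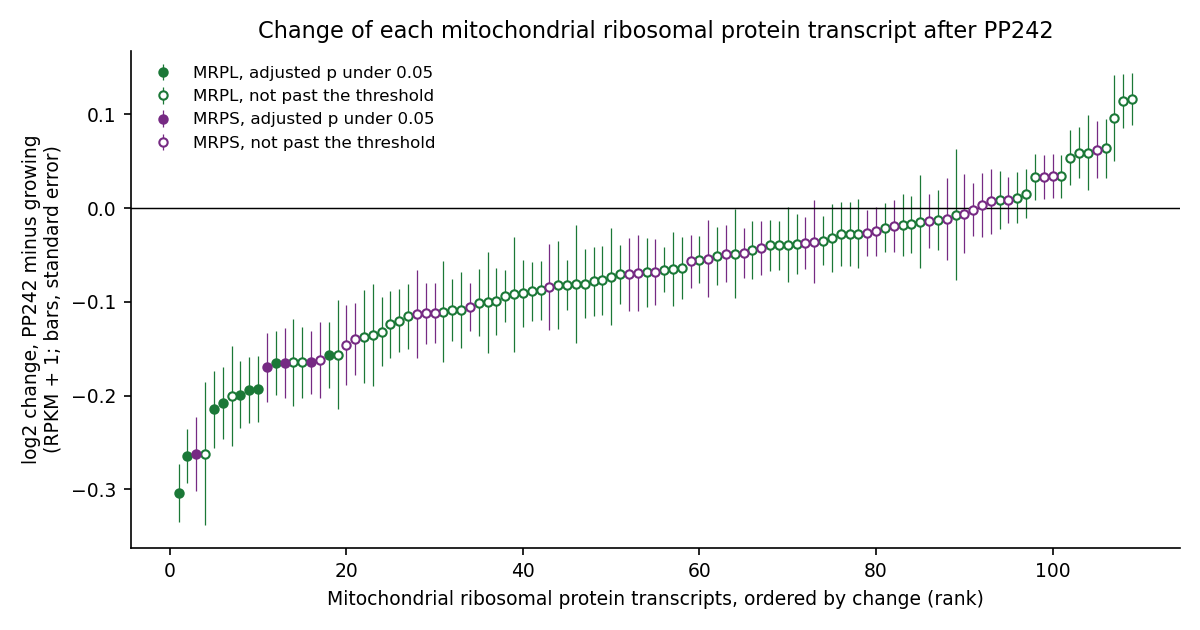
The 109 MRP transcripts ordered by their log2 change of RPKM + 1 (PP242 minus growing, y axis; rank on the x axis), with the standard error from limma as bars and filled points where the adjusted p was under 0.05. Filled points are found among the lower transcripts and none among the 18 above 0.

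The shift was seen in each pair of libraries and was larger than the median difference between replicates. In bulk libraries, fewer cells with an RNA and less RNA per cell cannot be told apart. The median RPKM of the 109 transcripts was 25.6 and 25.9 under growing conditions and 24.2 and 23.9 under mTOR-inactive conditions, so the libraries of the conditions did not overlap. The 4 comparisons of an mTOR-inactive with a growing library gave median log2 differences of −0.041 to −0.091, with 70.6% to 81.7% of the transcripts below 0. The median difference between replicates was −0.032 under growing conditions (replicate 2 minus replicate 1) and −0.020 under mTOR-inactive conditions, with 65.1% and 68.8% of the transcripts below 0, close to the lowest share between conditions. The smallest two-sided p of an exact permutation test is 0.333 for 2 libraries against 2.

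The comparison was also made with transcripts of like level, length and GC content, which was chosen after seeing the data. Other transcripts between 7.94 and 71.9 RPKM, the range of 10% to 90% of the MRP transcripts, had a median of −0.0086, with 54.8% below 0, 7.90% lower and 3.90% higher at an adjusted p under 0.05. In the 2734 other transcripts that lay in the MRP ranges of level, of length and of GC content, the median was −0.015, with 59.3% below 0 and 8.63% lower. Length and GC content were those of the MANE transcript of the gene, found for 100% of the MRP transcripts and 77.8% of all transcripts tested. Across the 109 MRP transcripts, which share libraries and in part reads, the change and the log2 level had a Pearson's r of 0.124 and a Spearman's rho of 0.179.

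Among the large subunit proteins with a bacterial counterpart, 41 of 48 transcripts were below 0 (50.6% of all transcripts tested), with a median of −0.085, and 8 transcripts of MRPL17 and MRPL55 fell (6.45% of all). By gene these are 2 of 30, no larger a share than the 8.91% of all genes with a transcript that fell. MRPL17 (NM_022061.3) is the counterpart of bacterial L17, a protein at the rim of the exit tunnel. Its mRNA was at 22.0 and 22.4 RPKM under growing conditions and at 18.2 and 17.4 RPKM under mTOR-inactive conditions. Both libraries after PP242 lay below both growing libraries. Its mean fell by 19.8% from 22.2 ± 0.259 to 17.8 ± 0.528 RPKM (SD, n = 2), a log2 change of −0.30 (standard error 0.031, adjusted p = 0.00499 from limma). The gene lies on the minus strand of chromosome 11 of GRCh37 from 6701616 to 6704571.

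MRPL55 (chromosome 1, minus strand, 228294386 to 228297000 in GRCh37), the counterpart of bacterial L31, had 8 transcripts in the table, and 7 of them fell. Its transcript NM_181441.2 was at 12.4 and 12.2 RPKM under growing and at 9.99 and 10.1 RPKM under mTOR-inactive conditions. The conditions did not overlap, and the log2 change was −0.26 (standard error 0.029, adjusted p = 0.00625 from limma). The other 6 that passed had log2 changes of −0.16 to −0.21, and NM_181465.2 had −0.20 with an adjusted p of 0.0715 from limma. The 8 transcripts share reads and count as a single gene.

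2 further members of this class were named without passing the threshold. MRPL36, the counterpart of the small bacterial L36, was at 39.7 and 40.2 RPKM under growing conditions and at 36.3 and 30.3 RPKM under mTOR-inactive conditions. Its 2 libraries after PP242 differed widely, and the log2 change of −0.26 had an adjusted p of 0.0885 from limma. MRPL14, the counterpart of L14 at the interface of the subunits, was at 62.9 and 69.4 RPKM and at 58.4 and 59.3 RPKM, respectively (log2 change −0.16, adjusted p = 0.0813 from limma). Here the growing libraries were the ones that lay apart.

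Among the large subunit proteins particular to mitochondria, 24 of 29 transcripts were below 0 (50.6% of all), with a median of −0.064, and 1 fell, a smaller share than the 6.45% of all transcripts tested. This was MRPL41 (NM_032477.2; chromosome 9, plus strand, 140446331 to 140447007 in GRCh37), at 71.2 and 67.4 RPKM under growing and at 62.6 and 60.8 RPKM under mTOR-inactive conditions. The conditions did not overlap, and the mean fell by 11.0% (log2 change −0.16, adjusted p = 0.0374 from limma). MRPL50 was at 36.8 and 35.8 RPKM under growing and at 31.2 and 33.4 RPKM under mTOR-inactive conditions, with an adjusted p of 0.0507 from limma. MRPS30, a protein of the large subunit despite its name, was at 20.4 and 21.6 RPKM and at 19.2 and 18.2 RPKM, with an adjusted p of 0.0621 from limma. Neither passed the threshold, although their libraries did not overlap between conditions.

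Among the small subunit proteins with a bacterial counterpart, 17 of 18 transcripts were below 0 (50.6% of all), with a median of −0.062, and 4 transcripts of 3 of its 15 genes fell, against 6.45% of all transcripts and 8.91% of all genes tested. The count rests on 3 genes. MRPS17 (NM_015969.2; chromosome 7, plus strand, 56019570 to 56024193 in GRCh37), the counterpart of the rRNA-binding S17, was at 45.5 and 46.2 RPKM under growing and at 39.5 and 36.6 RPKM under mTOR-inactive conditions. The conditions did not overlap, with a log2 change of −0.26 (adjusted p = 0.0156 from limma). The annotation places 54 bases of its exons in exons of NIPSNAP2 on the same strand and 471 in those of a coding gene without a symbol, so reads from there could count for either.

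MRPS12 is the counterpart of S12 in the decoding center, and 2 of its 3 transcripts fell. NM_021107.1 (chromosome 19, plus strand, 39421584 to 39423808 in GRCh37 for the gene) was at 16.9 and 15.9 RPKM under growing and at 14.3 and 14.7 RPKM under mTOR-inactive conditions, a log2 change of −0.17 (adjusted p = 0.0422 from limma). NM_033363.1 had a log2 change of −0.16 (adjusted p = 0.0359 from limma). Both are near the threshold, as is MRPS2 (NM_016034.3; chromosome 9, plus strand, 138392528 to 138396517 in GRCh37), the counterpart of S2. MRPS2 was at 69.6 and 64.7 RPKM under growing and at 60.0 and 59.4 RPKM under mTOR-inactive conditions. Its log2 change was −0.16 (adjusted p = 0.0481 from limma). On the opposite strand, 104 of its exonic bases are shared with PIERCE1 and 250 with a long noncoding RNA without a symbol.

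The calls of these genes depended on single libraries to different degrees. MRPL17 and MRPL55 (NM_181441.2) passed the threshold in 4 of 4 fits that each left out a library. MRPS17 passed in 2 of these fits, and MRPL41, MRPS12 (NM_021107.1) and MRPS2 in 1 each. Without growing replicate 1 and 2 the median log2 change of the MRP transcripts was −0.056 and −0.076, respectively. Without mTOR-inactive replicate 1 and 2 it was −0.073 and −0.052. Fewer MRP transcripts fell than in the fit of all libraries, except without growing replicate 2. The shares of all transcripts that fell in these fits are not given, so the loss of calls is not read as particular to MRP transcripts. In each fit that left out a library, the condition with a single library is assumed to vary like the other. With all libraries but no filter on RPKM, MRPL17 and MRPL55 (NM_181441.2) did not pass (adjusted p = 0.0629 and 0.0532 from limma). Without a trend, MRPL41, MRPS12 (NM_021107.1) and MRPS2 did not pass (adjusted p = 0.0639, 0.0581 and 0.0768 from limma), whereas MRPL17, MRPL55 (NM_181441.2) and MRPS17 did.

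**Figure D2:**
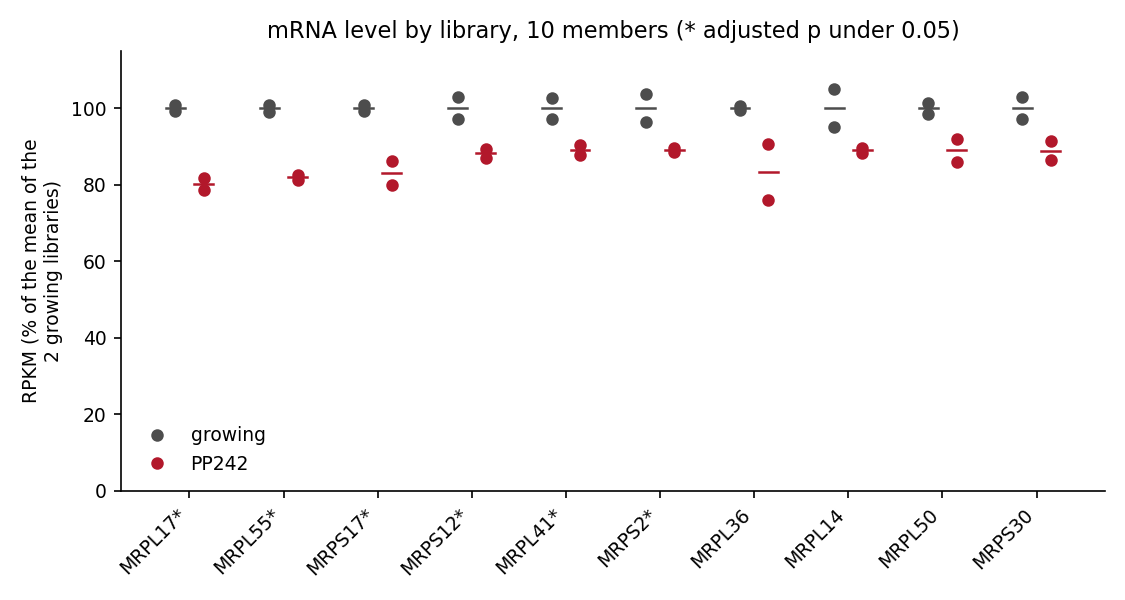
RPKM of 10 MRP transcripts in each library (points), as a percentage of the mean of the growing libraries, with the mean of the libraries of a condition as a line; asterisks mark an adjusted p under 0.05. The 10 were chosen among transcripts whose libraries did not overlap between conditions, so their separation is given by that choice, and MRPL36 has the widest spread after PP242.

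In the small subunit proteins particular to mitochondria, 9 of 13 transcripts were below 0 (50.6% of all), with a median of −0.025, and 0 passed the threshold (limma). At an unadjusted p under 0.05, 2 were lower, a share no larger than the 16.1% of all transcripts tested. MRPS36, later placed in the 2-oxoglutarate dehydrogenase complex, was at 19.9 and 18.8 RPKM under growing and at 19.5 and 19.4 RPKM under mTOR-inactive conditions. Its libraries overlapped between conditions, with a log2 change of 0.0073 (adjusted p = 0.914 from limma). Differences between the classes were not tested.

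Of the 76 genes, 60 had all their transcripts below 0 and 14 had all of them above 0. Of the 19 genes with several transcripts, 17 had them on the same side. The exceptions were MRPL43 and MRPS33, named here after their values were seen, and none of their transcripts passed the threshold. The member farthest above 0 was MRPL30, the counterpart of L30, at 11.3 and 11.3 RPKM under growing and at 12.3 and 12.4 RPKM under mTOR-inactive conditions. Its libraries did not overlap, but its log2 change of 0.12 did not pass the threshold (adjusted p = 0.0539 from limma), and 564 of its exonic bases are shared with a coding gene without a symbol on the same strand. The next was MRPL49, also named after its values were seen, with 15.6 and 15.6 RPKM and 17.3 and 16.8 RPKM (log2 change 0.11, adjusted p = 0.0606 from limma).

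RPKM is scaled by length, but reads shared by isoforms were divided among them, so the RPKM of a transcript falls with the number of its isoforms in the table. The 109 transcripts had a median level of 24.7 RPKM and ranged from 4.24 to 159 RPKM, whereas the median of the 124 RP transcripts was 476 RPKM. With the RPKM of the tested transcripts summed for each gene, which was added after seeing the data, the medians were 42.1 RPKM for the 76 MRP genes and 907 RPKM for the 79 RP genes. The genes of the highest level were MRPL37, MRPL51, MRPL12, MRPS34 and MRPL3, each with 1 transcript. MRPL37 was at 165 and 158 RPKM under growing and at 157 and 157 RPKM under mTOR-inactive conditions, and MRPL51 at 155 and 154 and at 154 and 148 RPKM. MRPL37 lay above MRPL51 in every library. MRPL12, the stalk protein that recruits translation factors to the ribosome, was at 145 and 135 RPKM and at 128 and 129 RPKM (log2 change −0.12, adjusted p = 0.0885 from limma), with 701 exonic bases shared with a coding gene without a symbol on the same strand. MRPS34 was at 121 ± 4.39 RPKM and MRPL3, the counterpart of L3 near the peptidyl transferase center, at 117 ± 2.54 RPKM under growing conditions (SD, n = 2), and their libraries overlapped in level.

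By the transcript of highest level per gene, the lowest were MRPL42, MRPL52, MRPL22, MRPL10 and MRPL35. Their means over the 4 libraries were 7.27, 7.33, 7.46, 9.93 and 10.9 RPKM, and the first 3 did not differ beyond the spread of their libraries. Each of these 5 genes has several transcripts in the table, which lowers its place. By the summed RPKM the lowest were MRPL22, MRPS14 and MRPL30, each at 11.8 RPKM, then MRPL42 at 14.5 and MRPL19 at 14.9 RPKM, whereas MRPL10 was at 18.6, MRPL35 at 19.6 and MRPL52, with 5 transcripts, at 33.6 RPKM. MRPL10, a protein at the base of the stalk, was at 9.65 and 9.72 RPKM under growing and at 9.99 and 10.3 RPKM under mTOR-inactive conditions (log2 change 0.064, adjusted p = 0.244 from limma). None of the 10 genes of highest or lowest level by transcript passed the threshold. Of all genes tested, 8.91% had a transcript that fell and 4.04% had one that rose, so the lack of calls is not read as particular to these 10.

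The median change of cytoplasmic RP transcripts was above 0. Of 124 transcripts of 79 RP genes, 13 were below 0 (10.5%) and the median was 0.034. In total 2 rose (RPS24 NM_033022.3 and RPL13A; 1.61%) and 0 fell (limma, adjusted p under 0.05), against 3.48% and 6.45% of all transcripts tested. At an unadjusted p under 0.05, 29 were higher (23.4%) and 0 lower, against 11.9% and 16.1% of all transcripts. The median of the RP transcripts was 0.013 with quantile normalization and 0.017 to 0.054 when single libraries were left out, the lowest without mTOR-inactive replicate 1. The calls of RPS24 and RPL13A had adjusted p-values of 0.0482 and 0.0499 from limma, and fewer RP transcripts rose when single libraries were left out.

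The median RPKM of the RP transcripts was 476 and 466 under growing and 491 and 470 after PP242, so the conditions overlapped. Its 4 differences between a library after PP242 and a growing library were 0.0059 to 0.063, with 0.806% to 43.5% of the transcripts below 0. The replicate differences were −0.021 under growing and −0.037 under mTOR-inactive conditions, with 83.9% and 86.3% below 0, so that the RP median change of 0.034 was smaller than the difference between the mTOR-inactive replicates. In both lists the median of the differences between paired values, replicate 2 minus replicate 1, was below 0 within each condition.

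The lists were measured in the same libraries, so they were also set against each other within each library. The median log2 level of the MRP transcripts minus that of the RP transcripts was −4.16 and −4.12 under growing and −4.28 and −4.24 under mTOR-inactive conditions. The conditions did not overlap. With each transcript set to its mean over the 4 libraries first, this difference between the list medians changed by −0.098 after PP242, with an SD between replicates of 0.0032 under growing and 0.0073 under mTOR-inactive conditions (n = 2). RPKM gives no absolute amount of RNA per cell.

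**Figure D3:**
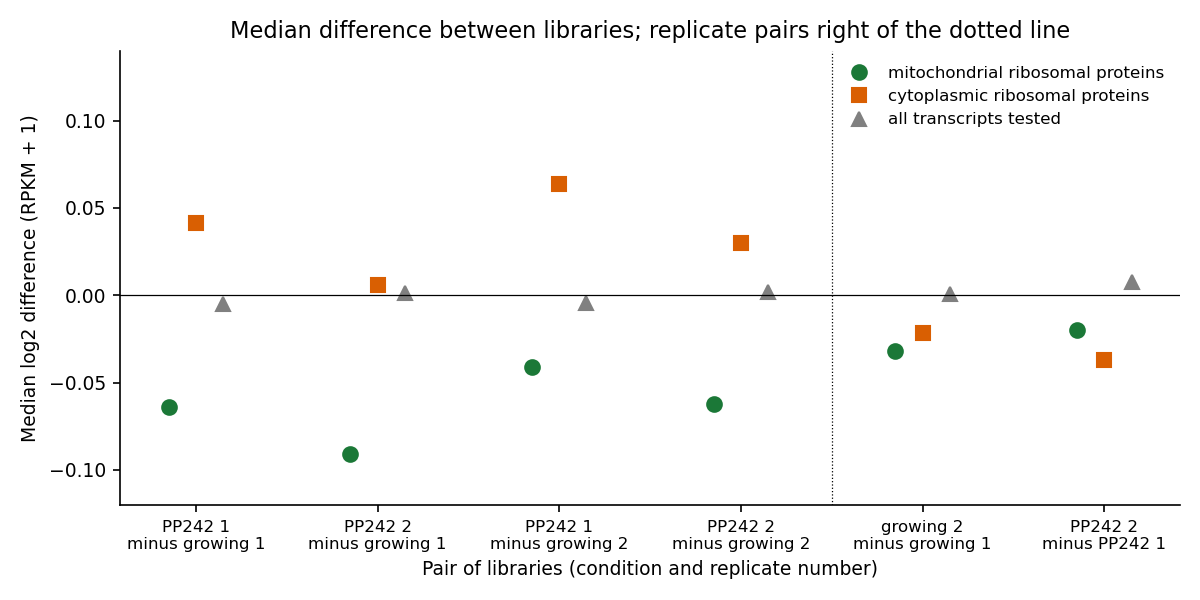
Median log2 difference of RPKM + 1 (y axis) between libraries (x axis, 4 pairs across conditions and 2 pairs of replicates) for MRP transcripts, RP transcripts and all transcripts tested. MRP medians lie at −0.041 to −0.091 across conditions and at −0.032 and −0.020 between replicates, and the RP replicate differences of −0.021 and −0.037 are similar in size to those across conditions.

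**Figure D4:**
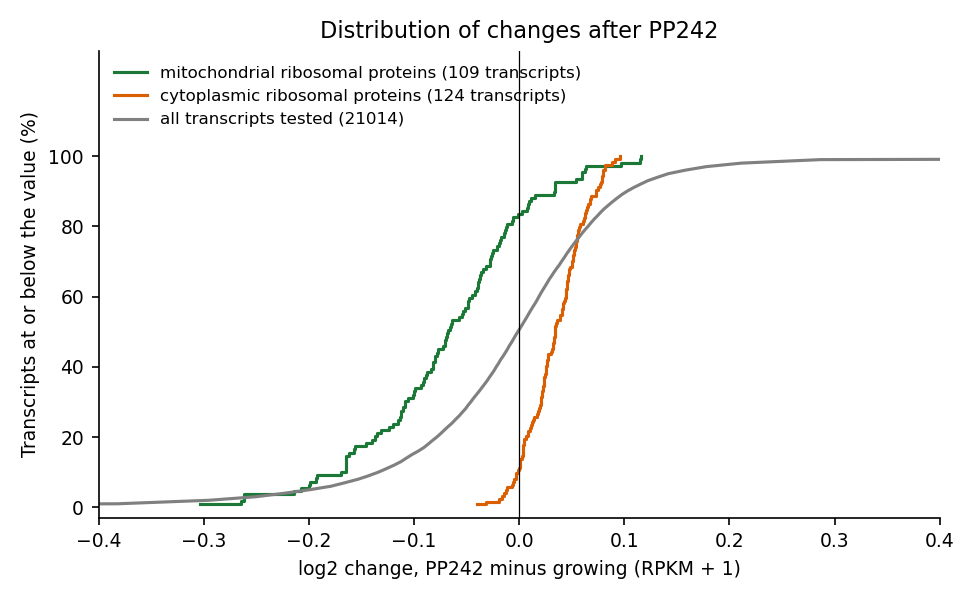
Cumulative share of transcripts (y axis, %) at or below a log2 change after PP242 (x axis) for 109 MRP transcripts, 124 RP transcripts and all 21014 transcripts tested, with the last shown at whole percentiles from −0.4 to 0.4. The MRP curve lies to the left of that of all transcripts over most of its range, and the RP curve crosses 0 at 10.5%.

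LARP1 sites were listed on a small share of MRP genes, as of all genes. In the deposited site lists, 5 of the 76 MRP genes had a site under growing conditions (6.58%), and so had 5 genes after PP242, against 10.3% and 11.2% of the 10681 genes whose mean reached 1 RPKM. Sites of at least 1 RPM, the reads of a site scaled to the mapped reads of the library, were on 1 MRP gene in growing cells (1.32%) and on 2 after PP242 (2.63%), against 1.74% and 3.84% of all genes. Of the other genes between 13.4 and 77.6 RPKM, the range of 10% to 90% of MRP genes, 2.42% and 4.77% had such a site. The MRP shares at this minimum rest on 1 and 2 genes. The paper describes an RPM cutoff of its own and reports fewer sites than the deposited lists hold.

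In RP genes the shares were larger, with 33 of 79 genes (41.8%) under growing and 60 (75.9%) under mTOR-inactive conditions, of which 26 and 56 had a site of at least 1 RPM. RP mRNAs were also more abundant, and the part of abundance in these shares was not tested. No MRP gene had a 5'UTR site in either list (0 of 76), whereas 3 and 12 RP genes had a 5'UTR site. Of all 10681 genes 0.655% and 0.693% had such a site, so that 0 of 76 does not stand apart from all genes. With 1 PAR-CLIP library per condition these shares have no replicate check.

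**Figure D5:**
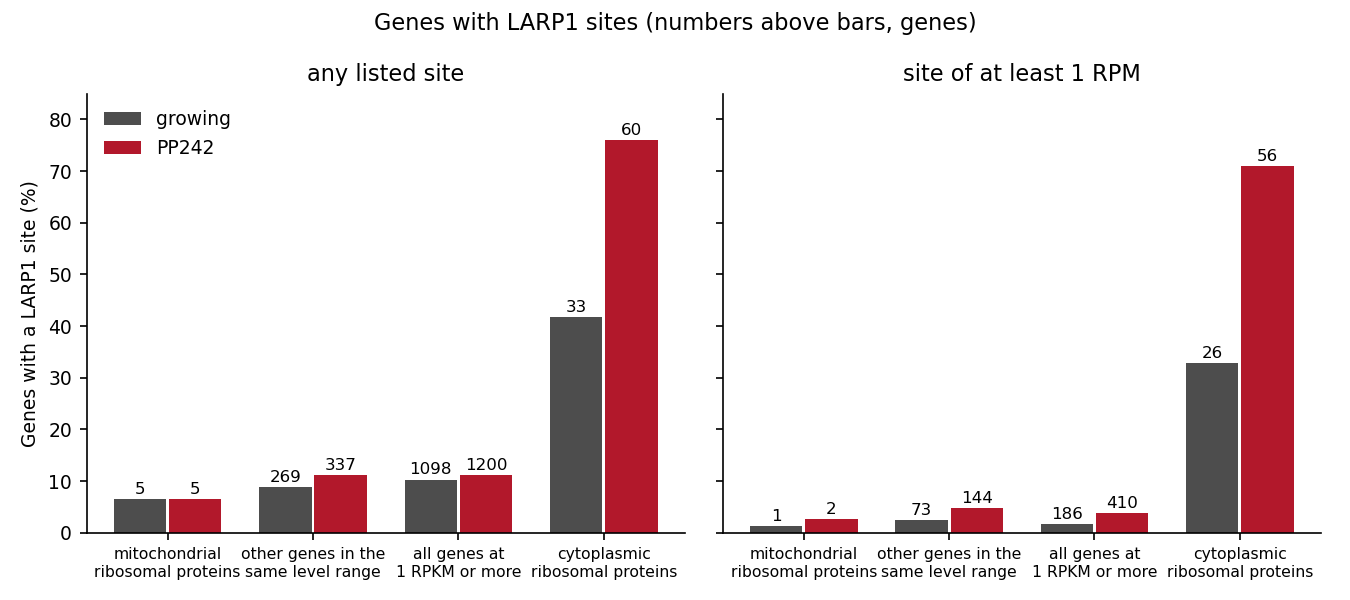
Share of genes with a LARP1 site in the deposited lists (y axis, %), for any listed site and for sites of at least 1 RPM, under growing (grey) and mTOR-inactive (red, PP242) conditions, with the number of genes above each bar. MRP genes have 5 and 5, and 1 and 2, genes with a site, the RP genes 33 and 60, and 26 and 56.

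The site with most reads was on MRPS14 (NM_022100.2; chromosome 1, minus strand, 174982094 to 174992561 in GRCh37), the counterpart of S14 in the head of the small subunit. Under mTOR-inactive conditions its 3'UTR had 1079 RPM at nt 563–586, which was rank 156 of the 3947 sites in the list. Its mRNA was at 11.9 and 11.7 RPKM under growing and at 11.5 and 12.1 RPKM under mTOR-inactive conditions, among the lower levels of MRP mRNAs and overlapping between conditions. No MRPS14 site was listed under growing conditions. The same values are listed on a noncoding transcript that RefSeq names MRPS14 too. The annotation places 387 exonic bases of MRPS14 opposite to exons of CACYBP, and whether the mapping used the strand is not stated.

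MRPL33 (chromosome 2, plus strand, 27994586 to 28002600 in GRCh37), the counterpart of L33, had 460 RPM in its 3'UTR under mTOR-inactive conditions. The site is listed on NM_145330.2 at nt 344–364 and on NM_004891.3 at nt 451–471, with the same value. The level of NM_004891.3 was 34.8 and 34.8 RPKM under growing and 30.6 and 35.3 RPKM under mTOR-inactive conditions, so the conditions overlapped (log2 change −0.080, adjusted p = 0.450 from limma). No MRPL33 site was listed under growing conditions, and 324 exonic bases are shared with BABAM2 on the same strand.

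Under growing conditions the only site of at least 1 RPM was in the CDS of MRPL37 (NM_016491.3, nt 126–148; chromosome 1, plus strand, 54665840 to 54684056 in GRCh37), with 3.68 RPM. MRPL37 was the most abundant MRP mRNA, and no site of it was listed under mTOR-inactive conditions, where its level differed by −0.039 on the log2 scale (adjusted p = 0.375 from limma). No MRP gene had a site in both lists. In the MRP mRNAs the listed sites summed to 3.74 RPM under growing and to 1999 RPM under mTOR-inactive conditions, or 1539 RPM with each value taken once per gene. MRPS14 and MRPL33 held nearly all of the latter.

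The other sites had very low values. Under growing conditions they were on MRPL54 (CDS, 0.0239 RPM), MRPS16 (3'UTR, 0.0228 RPM), MRPL30 (3'UTR, 0.0090 RPM) and MRPS36 (3'UTR, 0.00040 RPM). Under mTOR-inactive conditions they were on MRPS35 (3'UTR, 0.0519 RPM on 2 isoforms), MRPS10 (3'UTR, 0.0212 RPM) and MRPS31 (CDS, 0.0059 RPM). Some of the same values are listed on other transcripts as well. The values of the MRPL30 site are listed on 12 other transcripts, those of MRPS16 on 11, those of MRPS10 on 6 and those of MRPS31 on 27. The sequences of these sites were not compared, and whether they are the same reads was not tested.

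The lists also hold a column on T-to-C conversion, the trace that crosslinked 4-thiouridine leaves in a read, which the methods do not describe. It was 30540 at the MRPS14 site, 13024 at the MRPL33 site and 95 at the MRPL37 site. Of the sites of at least 1 RPM, 67.3% under mTOR-inactive and 44.3% under growing conditions had it within 2% of RPM times 28.3 and 25.8, respectively. At these multiples a value of 1 stands at 0.0353 and 0.0388 RPM, and all 3 MRP sites above lie at them. By this column 6 of the 12 listed MRP sites were below 1. The 12 count the sites of MRPL33 and MRPS35 on each of 2 isoforms, and both lie above 1, so the share of distinct sites below 1 is larger.

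None of the genes with a LARP1 site passed the threshold for a change of the mRNA. Of all genes tested, 8.91% had a transcript that fell and 4.04% had one that rose. With so few genes, the lack of calls is not read as particular to genes with a LARP1 site. MRPL54 was at 41.7 and 40.6 RPKM under growing and at 46.2 and 42.1 RPKM under mTOR-inactive conditions (log2 change 0.096, adjusted p = 0.235 from limma). MRPS16 was at 33.2 and 31.8 RPKM and at 29.5 and 30.5 RPKM (log2 change −0.11, adjusted p = 0.0857 from limma). MRPS10 was at 26.6 and 25.9 RPKM and at 25.6 and 26.3 RPKM, and MRPS31 at 24.2 and 26.5 RPKM and at 24.2 and 23.5 RPKM, with libraries that overlapped between conditions. MRPS35 (NM_021821.3) was at 21.9 and 21.8 RPKM and at 21.7 and 21.3 RPKM (log2 change −0.025, adjusted p = 0.587 from limma).

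The other genes of mitochondrial translation were described by lists of their own. Their counts stand against 6.45% of all transcripts tested that fell and 3.48% that rose, and with 1 to 4 transcripts called in a direction, or 0, no list is read as standing apart from these shares. Of 13 transcripts of mitoribosomal proteins under other symbols, 2 fell and 0 rose. CHCHD1, a small subunit protein, was at 37.1 and 37.4 RPKM under growing and at 33.9 and 34.5 RPKM under mTOR-inactive conditions (log2 change −0.12, adjusted p = 0.0370 from limma). GADD45GIP1, a large subunit protein, was at 100.1 and 96.5 RPKM and at 89.0 and 90.4 RPKM (log2 change −0.13, adjusted p = 0.0376 from limma). The list's median was −0.015, with 6 of the 13 above 0, against 10387 of all 21014 transcripts tested. The 6 include the 5 transcripts of DAP3, a GTP-binding protein of the small subunit, named here after their values were seen. The log2 changes of the DAP3 transcripts were 0.11 to 0.13, with adjusted p-values of 0.0526 to 0.0907 from limma. Their libraries did not overlap between conditions, and the isoforms share reads.

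Among 25 transcripts of mitochondrial translation factors, 1 fell and 0 rose (6.45% and 3.48% of all transcripts tested), with a median of −0.0079. This was the release factor homolog MTRF1, at 3.53 and 3.86 RPKM under growing and at 2.95 and 2.99 RPKM under mTOR-inactive conditions (log2 change −0.24, adjusted p = 0.0276 from limma). Among 28 transcripts of mitoribosome assembly and rRNA modification, 4 fell and 2 rose (6.45% and 3.48% of all), with a median of −0.017. The largest fall was that of DDX28, an RNA helicase of large subunit assembly (log2 change −0.18, adjusted p = 0.0175 from limma), and the largest rise that of GTPBP5, a GTPase of large subunit assembly (log2 change 0.16, adjusted p = 0.0387 from limma). The directions in this list were mixed.

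For mitochondrial DNA transcription, replication and mRNA upkeep, 2 of 22 transcripts fell and 1 rose, near the 6.45% and 3.48% of all, with a median of −0.021. With isoforms counted separately, 16 of the 22 were below 0, against 50.6% of all transcripts tested. The transcription elongation factor TEFM had a log2 change of −0.22 (adjusted p = 0.0318 from limma), and LRPPRC, which stabilizes mitochondrial mRNAs, of 0.17 (adjusted p = 0.0283 from limma). Of 22 transcripts of mitochondrial aminoacyl-tRNA synthetases, 18 were above 0, against 10387 of all 21014 transcripts tested, with a median of 0.044. In this list 1 fell (MARS2, log2 change −0.30, adjusted p = 0.00768 from limma) and 1 rose (PARS2, log2 change 0.40, adjusted p = 0.0188 from limma). Of 14 transcripts of nuclear regulators of mitochondrial genes, with isoforms counted separately, 10 were below 0, against 50.6% of all transcripts tested. Their median was −0.038, and 1 fell, near the 6.45% of all transcripts tested. This was the PGC-1-related coactivator PPRC1, at 28.3 and 28.2 RPKM under growing and at 21.8 and 22.2 RPKM under mTOR-inactive conditions (log2 change −0.35, adjusted p = 0.00208 from limma). In size this change exceeded that of each MRP transcript.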

How the data were processed

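LARP1 PAR-CLIP (1 library per condition) and mRNA-seq (2 libraries per condition) of HEK293T cells were analysed. The authors removed linkers, mapped reads to the GRCh37 transcriptome with Bowtie, kept perfect matches for mRNA-seq, divided reads of several loci evenly and deposited RPKM per transcript. For PAR-CLIP the authors clustered reads, required a T-to-C read in each cluster and deposited RPM per site, the ratio of RPM to RPKM, and a column on T-to-C reads whose meaning is not described and which is used as a score. These steps let isoforms and paralogs share reads. The paper also describes an empirical cutoff on RPM and reports fewer sites than the deposited lists hold. The lists have 3948 entries for growing cells and 3947 after PP242, with a median of 0.0052 and 0.0173 RPM, respectively. Counts of genes with any listed site rest on all these entries.

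RPKM values are not counts, so limma 3.58.1 (R 4.3.3; lmFit, eBayes with a trend, no block) was run on log2(RPKM + 1) of the 21014 transcripts whose mean reached 1 RPKM, with p-values adjusted after Benjamini and Hochberg and a threshold of 0.05. Fold changes on this scale understate those of low transcripts. In data simulated for this comparison on 21014 transcripts, 15 of 100 transcripts changed by 0.25 on the log2 scale, 68 of 100 changed by 0.5 and 2 of 20814 unchanged ones were called. Only 200 transcripts were changed there, and the spreads were shuffled over transcripts of all levels. The shares called need therefore not hold for MRP transcripts. 1273 repeated lines were dropped, and 3 noncoding transcripts whose names begin like those of MRP genes were left out. Other steps used Python 3.11.15, pandas 2.3.3 and matplotlib 3.10.9, with GENCODE 44 on GRCh37 for locations. The depth of the libraries in reads is unknown, so no counting error is given.

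Named members were those with a LARP1 site and the 10 genes with the largest change. These 10 were taken among called transcripts whose libraries did not overlap, and filled up from others. The 5 genes of highest and the 5 of lowest level were also named. From each other list the called transcripts of largest rise and fall were named. RPS24 (NM_033022.3) and CHCHD1, the other called transcripts of their lists, were named outside this rule. The members and lists were chosen with earlier results of these data known, and the structural classes after the data were seen. Alternatives were other pseudocounts, filters, scalings, a replicate block and a crossed one, and single libraries left out. Further ones were moderation without a trend, 1 transcript per gene and minimum RPM of sites.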

Additional observations from a re-analysis of the deposited data

How the results depend on the processing

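The median log2 change of MRP transcripts was negative in every fit run, from −0.052 to −0.076 when single mRNA-seq libraries were left out, −0.053 with quantile normalization and −0.049 with 1 transcript per gene. The number of MRP transcripts that fell was 13, and 19 in 11 genes with a filter of at least 5 RPKM. It was 7 with 1 transcript per gene, 8 without a trend in limma and 0 without a filter on RPKM, where 0 RP transcripts were called too. When single libraries were left out it was lower, except without growing replicate 2. The shares of all transcripts called in the alternatives are not given. The counts of this paragraph are thus not read against the 6.45% and 3.48% of the main fit. The number of RP transcripts that rose was 2, and 0 without a trend and 4 with the filter of at least 5 RPKM. It was 7 with the replicate block and 0 with a crossed block, which pairs replicates of unlike number. The number of MRP transcripts that rose was 0, and 2 with a filter of at least 5 RPKM and 1 with quantile normalization. With the replicate number as a block 16 fell, 12 of them among the 13. With the crossed block 13 fell, 9 of them among the 13. MRPL41 and MRPS2 did not pass in the crossed block (adjusted p = 0.0563 and 0.0550 from limma). The numbers share only a name in the labels, and the replicate differences of the conditions had a correlation of 0.040 across transcripts. Of the alternatives for the single named transcripts, 387 left the call, or for most transcripts the lack of a call, as it was. A call ended in 25 and was gained in 19. The cause of these differences was not tested. MRPL17 and MRPL55 passed the threshold in 13 of 14 alternatives, MRPS17 in 11, MRPL41 in 8, MRPS2 in 7 and MRPS12 in 6 of 13. The 5 genes with a LARP1 site under growing conditions became 1 at 0.1 RPM or 1 RPM and 3 without values listed on another gene; the 5 under mTOR-inactive conditions became 2, 2 and 3. With a T-to-C column of at least 1, chosen after seeing the data, they became 1 and 3. Sums over MRP sites were 24.9 and 122401 with RPM normalized to RPKM, and 1539 RPM under mTOR-inactive conditions with each value once per gene.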

Other observations

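A further transcript, NM_181304.2, has no gene name in the table and is MRPL52 by its RefSeq accession. It was at 6.07 and 5.74 RPKM under growing and at 5.59 and 5.18 RPKM under mTOR-inactive conditions (log2 change −0.11, adjusted p = 0.172 from limma). Of the noncoding transcripts, that of MRPL49 (NR_037567.1) was at 14.3 and 14.5 RPKM and at 15.7 and 15.4 RPKM (log2 change 0.11, adjusted p = 0.0717 from limma), and the pseudogene MRPL45P2 at 5.47 and 5.04 RPKM and at 5.69 and 5.73 RPKM. MRPL23-AS1 was at 0.207 to 0.407 RPKM and was not tested.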
